A study of Mus musculus with 2 samples.

Results

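The 10 genes Tsc22d3, Per1, Fkbp5, Klf9, Ddit4, Bcl6, Txnip, Pik3ip1, Sesn1 and Irs2, which the glucocorticoid receptor or FOXO transcription factors are known to switch on, were followed in single mouse leukemia cells. These 10 genes, of 31053 in the files, were matched by symbol and all 10 were found. They were chosen by their known place in these pathways with their measured values in the same 2 libraries already in view, so their levels, ratios and co-detection are given as description only. Of these, 4 are counted here as glucocorticoid members (Tsc22d3, Per1, Fkbp5 and Klf9) and 4 as FOXO members (Txnip, Pik3ip1, Sesn1 and Irs2), while Ddit4 and Bcl6 are known targets of both and were kept apart. The groups are labels for counting, and whether their members also answer to the other pathway was not tested.

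The cells were AE9a leukemia cells, which carry a truncated splice form of the fusion of RUNX1 with ETO, and had the Usp18 floxed allele together with a broadly expressed, tamoxifen-inducible Cre. The protein USP18 restrains the response to type I interferon. Leukemic C57BL/6 recipient mice aged 8 to 12 weeks received oil or tamoxifen in 2 injections, and GFP+ Lin- c-Kit+ spleen cells were sorted 3 days after the first. Each arm was 1 droplet library that pooled 3 mice, so no replicate check or test was possible and every interval below covers counting error only. The labels disagree on genotype: the sample fields give Usp18 f/f for oil and delta/delta for tamoxifen, and the protocol gives a heterozygous floxed line. Usp18 itself goes against the depletion, with 5.62 CPM under oil and 15.4 CPM under tamoxifen (CPM, unique molecules or UMIs of a gene scaled to a common library total), so each library is called by what its label says. That comparison counts transcripts by their 3′ end and does not check whether the floxed exons were removed. Tamoxifen, Usp18 genotype and library cannot be told apart in this design.

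Barcodes with under 500 genes or over 10% of UMIs from mitochondrial genes were set aside, and 6838 of 7774 barcodes (oil) and 6472 of 7311 (tamoxifen) were kept, at medians of 8623 and 8210 UMIs per cell. The libraries shared 14 barcodes, 12 of them among the kept cells. Kit, whose protein the sort used, was abundant, with 11305 and 14057 UMIs, whereas Ptprc and Cd34, blood cell and progenitor markers that the sort did not use, had 9 and 3 and 5 and 15 UMIs. Of the lists for other cells, the T cell list summed to 0 and 4 UMIs, the granulocyte list to 3 and 3, the B cell list to 14 and 11, the NK cell list to 29 and 38 and the endothelial list to 49 and 54. The macrophage list was higher, at 480 and 445 UMIs (324 and 292 of them from Cd68), as was the megakaryocyte list, at 469 and 594 (425 and 558 from Itga2b). Of 7 granulocyte markers, 4 (S100a8, Elane, Ngp and Ly6g) and the T cell markers Trac and Cd3g were at 0 in both libraries.

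Glucocorticoids bind a cytoplasmic receptor (Nr3c1) that is held by heat shock chaperones, enters the nucleus with its ligand and binds DNA at a palindromic response element. FOXO factors are driven out of the nucleus when PI3K and AKT are active, so their targets rise when growth factor signaling is low, and many of these targets slow growth or the cell cycle. Both programs meet on genes that restrain growth signaling, and both are well known in lymphoid and myeloid blood cells.

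Promoter sequence was inspected because several members, described below, were seen together in the same cells. All 10 members matched the RefSeq promoter table (GRCm38.p6, 300 bases, 250 before and 50 after each start) with 15 promoters. The letters of a FOXO site, GTAAACA, occurred on either strand in 3 of these 15 promoters (Txnip, Klf9 and Sesn1) and in 3.65% of all 32851 promoters. The half-site of the glucocorticoid response element, TGTTCT, occurred in 2 (Tsc22d3 and Bcl6) and in 19.0% of all. The full palindrome, AGAACA, any 3 bases and TGTTCT, which contains the half-site on both strands, occurred in none of the 15 and in 3 of all promoters. An E-box, CACGTG, the letters that clock factors bind, occurred in 4 (Irs2, Per1, Bcl6 and Fkbp5) and in 7.15% of all, and the cAMP response element TGACGTCA in none and in 1.79%. These matches are letters in a window and not measured binding, and the window holds no distal element. Tsc22d3, Per1 and Sesn1 also had promoters without any match, and counts of 3′ ends do not show which start was used. For 4 members, the 250 bases before the start are shown 5′ to 3′ in the direction of the gene, chosen because they hold a match in a member that the results below turn on, with the matched letters in capitals. They are Txnip (chr3:96557707-96557956, plus strand, FOXO site beginning 121 bases before the start), Klf9 (chr19:23140976-23141225, plus strand, FOXO site at 100 bases), Tsc22d3 (chrX:140600523-140600772, minus strand, glucocorticoid half-site at 185 bases) and Per1 (chr11:69098699-69098948, plus strand, E-box at 166 bases).
Txnip: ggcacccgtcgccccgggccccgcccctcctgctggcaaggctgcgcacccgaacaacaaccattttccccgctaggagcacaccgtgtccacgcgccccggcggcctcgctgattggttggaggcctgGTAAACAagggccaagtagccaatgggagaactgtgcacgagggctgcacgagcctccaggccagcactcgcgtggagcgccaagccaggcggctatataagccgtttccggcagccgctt
Klf9: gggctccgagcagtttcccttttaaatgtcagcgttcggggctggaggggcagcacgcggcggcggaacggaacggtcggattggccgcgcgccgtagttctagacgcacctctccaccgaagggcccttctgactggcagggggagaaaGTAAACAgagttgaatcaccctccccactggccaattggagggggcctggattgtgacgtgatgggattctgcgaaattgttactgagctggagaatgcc
Tsc22d3: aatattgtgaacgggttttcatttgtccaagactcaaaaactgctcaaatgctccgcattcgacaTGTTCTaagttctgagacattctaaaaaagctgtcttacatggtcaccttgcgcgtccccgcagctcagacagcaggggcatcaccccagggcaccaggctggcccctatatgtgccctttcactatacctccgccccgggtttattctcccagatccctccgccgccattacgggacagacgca
Per1: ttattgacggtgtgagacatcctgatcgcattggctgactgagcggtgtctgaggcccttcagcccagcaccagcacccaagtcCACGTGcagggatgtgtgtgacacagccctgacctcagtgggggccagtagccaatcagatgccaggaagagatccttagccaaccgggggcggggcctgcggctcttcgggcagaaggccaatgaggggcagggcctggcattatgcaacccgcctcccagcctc
The FOXO letters stood both in a FOXO member, Txnip, and in a glucocorticoid member, Klf9. Of the members most often seen together below, Tsc22d3, Per1 and Klf9 each held a different motif, and Ddit4 and Pik3ip1 held none. No searched motif was thus common to them.

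Among the glucocorticoid members, Tsc22d3 (GILZ, a leucine zipper protein that restrains inflammatory transcription, chromosome X, 140539528 to 140600659) was at 36.9 CPM in the oil library and 52.7 CPM in the tamoxifen library. Its log2 ratio was 0.52 (95% counting interval 0.44 to 0.59). Klf9 (a zinc finger repressor, chromosome 19, 23141226 to 23168134) went from 47.0 to 66.6, a log2 ratio of 0.50 (0.43 to 0.57). Per1 (a clock repressor that glucocorticoids also induce directly, chromosome 11, 69095217 to 69109960) went from 16.5 to 26.3, a log2 ratio of 0.67 (0.56 to 0.78). Thus the 3 abundant glucocorticoid members were all higher in the library labelled tamoxifen, by 1.42-fold to 1.59-fold. Fkbp5 (a chaperone that dampens the receptor, chromosome 17, 28399094 to 28517527) was scarce, with 45 UMIs in oil and 72 in tamoxifen, and its log2 ratio of 0.80 carried a wide interval (0.24 to 1.37).

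Of the targets of both pathways, Ddit4 (REDD1, an inhibitor of the growth kinase mTORC1, chromosome 10, 59949669 to 59951834) had the highest ratio in the summed counts, though not under every cell filter or weighting. It was at 21.3 CPM in oil and 38.9 in tamoxifen, a log2 ratio of 0.87 (0.77 to 0.96). Bcl6 (a transcriptional repressor of lymphoid cells, chromosome 16, 23965052 to 23988852) was close to absent, with 43 and 41 UMIs in the whole libraries, and did not reach the minimum of 100 UMIs in both libraries together that was set for a measured gene.

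The FOXO members were less uniform. Txnip (the thioredoxin-binding protein that limits glucose uptake, chromosome 3, 96557957 to 96561883) was by far the most abundant member at 619.5 and 752.0 CPM, with a log2 ratio of 0.28 (0.26 to 0.30). Pik3ip1 (a membrane inhibitor of PI3K, chromosome 11, 3330401 to 3342971) went from 32.4 to 47.3, a log2 ratio of 0.55 (0.46 to 0.63), close to Tsc22d3 and Klf9. Sesn1 (a leucine sensor that inhibits mTORC1, chromosome 10, 41809935 to 41908424) was at 32.3 and 34.9, a log2 ratio of 0.11 (0.03 to 0.20). Irs2 (the insulin receptor adaptor, chromosome 8, 10984681 to 11008458) was at 26.4 and 26.9, and the interval of its log2 ratio of 0.03 included 0 (-0.07 to 0.12). Since each transcript gives 1 tag at its 3′ end, these levels need no scaling by length. In the library labelled oil the order ran from Txnip through Klf9, Tsc22d3, Pik3ip1, Sesn1, Irs2, Ddit4 and Per1 to Fkbp5 and Bcl6. Pik3ip1 and Sesn1 did not differ beyond their counting intervals there, nor did Fkbp5 and Bcl6.

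**Figure D1:**
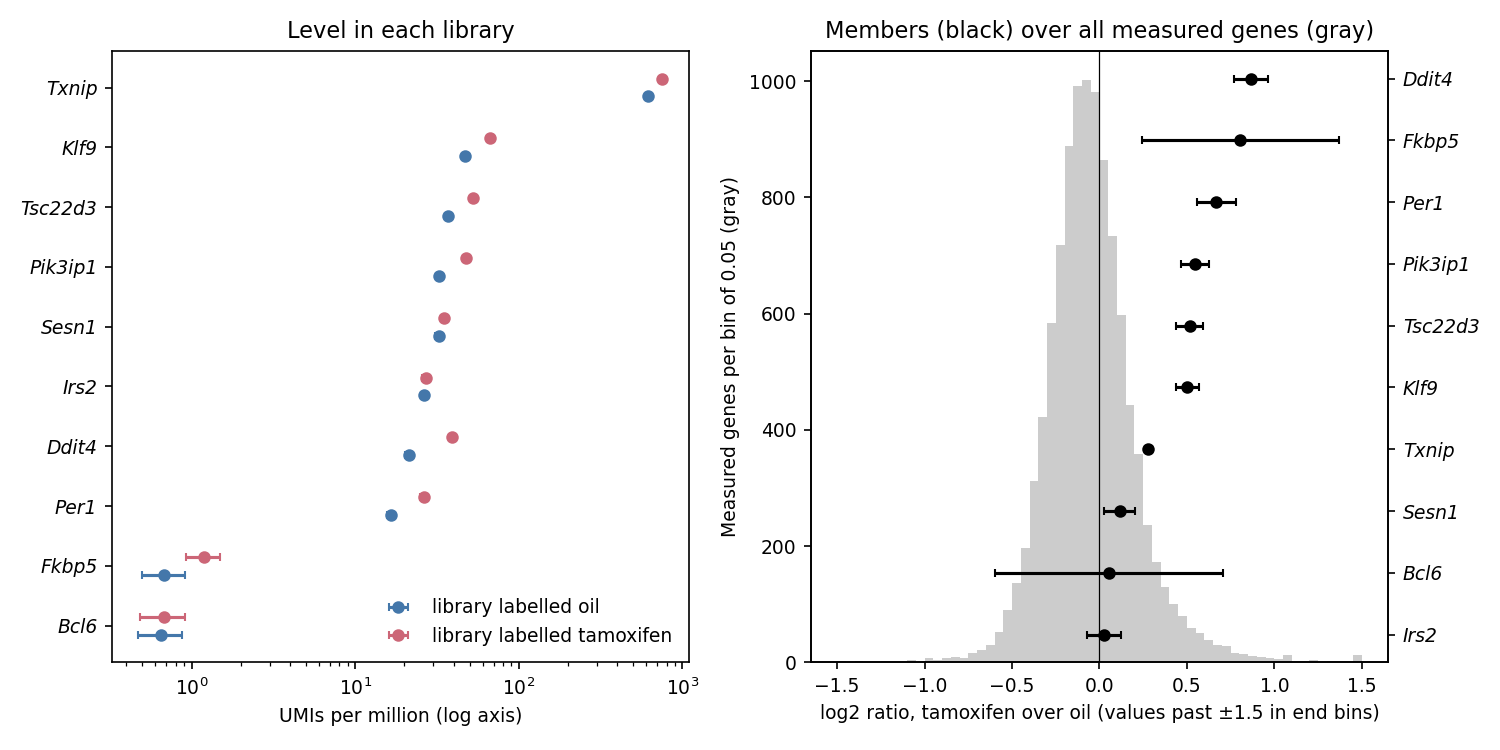
Left, level of each member in CPM (log axis) in the oil (blue) and tamoxifen (red) library, with 95% Poisson intervals. Right, log2 ratio of tamoxifen over oil for each member (black points, 95% counting intervals) over the histogram of the same ratio for 10527 measured genes (gray, left axis). Of the 9 measured members, 8 have intervals above 0, and Irs2 lies at 0.03.

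Of the 10 members, 9 were measured, and all 9 ratios were above 0, with a median log2 ratio of 0.52 beside -0.06 for the 10527 measured genes. The median was 0.59 for the 4 glucocorticoid members and 0.20 for the 4 FOXO members. The ratio passed a fixed size in 3 members (Ddit4, Fkbp5 and Per1), which were at least 1.5-fold higher, where 2.09% of all measured genes were, and no member was at least 1.5-fold lower, where 1.27% of genes were. The counting interval lay above 0 for 8 members, beside 19.3% of all measured genes, and below 0 for none, beside 39.8%. The members were chosen with this contrast in view, and nothing further is read from these counts. The levels are sums over all kept cells, and within G1 cells alone the median log2 ratio was 0.12 over 8 measured members, beside -0.10 for the 8668 genes measured there. In the barcodes that the cell filter set aside, 4 of 8 measured members had intervals above 0 and none below, beside 6.47% and 24.5% of the 7198 genes measured there.

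The share of cells in which a member was seen was compared at 1 depth, with each cell thinned at random to 3000 UMIs, which left 6330 and 6127 cells and removed 508 and 345 shallower ones. Txnip was seen in most cells, 69.5% under oil and 77.1% under tamoxifen (91.2% and 94.2% before thinning). The other members were minority signals at this depth. Klf9 was seen in 14.1% and 20.4% of thinned cells (31.3% and 38.6% before thinning) and Tsc22d3 in 12.8% and 16.6% (25.1% and 32.2%). Pik3ip1 was seen in 12.2% and 17.0% (21.9% and 29.9%), Ddit4 in 7.47% and 12.5% (16.7% and 26.4%) and Per1 in 5.69% and 8.73% (14.0% and 20.4%). For these 6 members the share was higher in tamoxifen with 95% Clopper-Pearson intervals that did not overlap between the 2 libraries, as for 6.25% of the 10527 measured genes, and 20.5% of genes were lower in the same way. The shares come from the contrast that chose the members, and nothing is read from this count. Sesn1 (10.8% and 10.95%) and Irs2 (7.55% and 7.80%) had overlapping intervals, as did Fkbp5 (0.395% and 0.539%) and Bcl6 (0.379% and 0.245%). Before thinning, Sesn1 was seen in 25.8% and 26.7% of cells and Irs2 in 20.5% and 20.4%. The sort held no other cell type that could show how much of such a share comes from free RNA in the droplets, so that part was not tested.

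Signal per positive cell also differed among the members. In the library labelled oil, 21.2% of thinned cells with Tsc22d3, 21.9% of those with Pik3ip1 and 19.9% of those with Klf9 held at least 2 of its UMIs, against 7.45% for Sesn1, 6.69% for Irs2 and 5.28% for Per1. The variance over the mean across thinned cells was 1.55 for Tsc22d3, 1.38 for Pik3ip1 and 1.36 for Klf9, and 1.07 for Irs2, 1.04 for Per1 and 1.03 for Sesn1, where 1 is the value of random counting. Txnip had the highest value, 4.47 in oil and 3.65 in tamoxifen, and reached 47 and 55 UMIs in a single unthinned cell.

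Co-detection was measured as the number of thinned cells with a UMI of both genes over the number that the product of the 2 shares would give, so that 1 means no relation. A block of 5 members from all 3 groups (Tsc22d3, Per1, Klf9, Ddit4 and Pik3ip1) was seen together in the same cells. Their 10 pairs, a set picked after the values were seen, had ratios from 1.34 to 2.26 under oil and from 1.38 to 1.76 under tamoxifen, and all 10 intervals lay above 1 in each. The highest ratio in oil was that of Ddit4 with Pik3ip1, and next came Tsc22d3 with Pik3ip1, which were seen together in 220 cells where 98.9 were expected, a ratio of 2.22 (1.94 to 2.53). In tamoxifen Tsc22d3 and Pik3ip1 were seen together in 304 cells where 172.3 were expected, a ratio of 1.76 (1.58 to 1.97). Within the glucocorticoid group, Tsc22d3 gave 1.74 and 1.61 with Per1 and 1.77 and 1.55 with Klf9, so its tie to the FOXO member Pik3ip1 was of a like size. Over all pairs with at least 10 expected cells, the median ratio was 1.74 and 1.55 among glucocorticoid members (3 pairs), 1.27 and 1.18 between the groups (13 pairs) and 1.05 and 1.11 among FOXO members (6 pairs). Only the sets with FOXO members hold Txnip, whose high share allows a ratio of at most 1.44 in oil and 1.30 in tamoxifen. The medians are therefore not like for like.

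**Figure D2:**
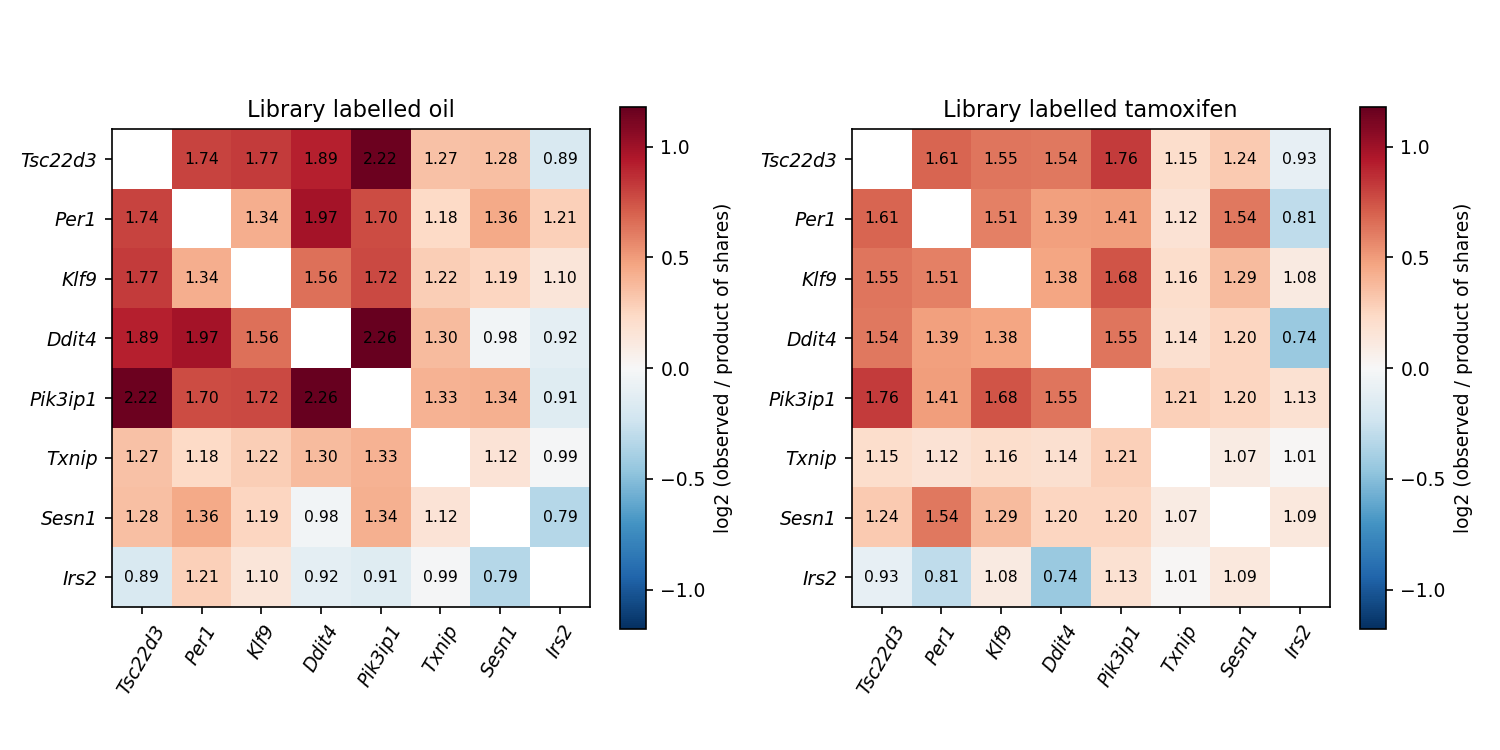
Co-detection of 8 members in thinned cells of each library, as observed cells with both genes over the product of the 2 shares (number in each box) and its log2 (color, 0 is no relation). The block of Tsc22d3, Per1, Klf9, Ddit4 and Pik3ip1 is at 1.34 or above in both libraries, and the row of Irs2 scatters around 1.

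Irs2 stood outside this block. None of its 7 ratios with other members had an interval above 1 in either library, the median was 0.92 in oil and 1.01 in tamoxifen, and its ratio with Ddit4 in tamoxifen was 0.74 (0.54 to 0.99). Sesn1 was intermediate, with a median ratio of 1.19 in oil and 1.20 in tamoxifen and 4 of 7 intervals above 1 in each. Txnip ratios with the other members ran from 0.99 to 1.33 in oil and from 1.01 to 1.21 in tamoxifen, where its own high share allows at most 1.44 and 1.30. Fkbp5 and Bcl6 were too scarce for most pairs: Fkbp5 and Per1 shared 8 cells in oil where 1.42 were expected. As a comparison, pairs of a member with 1 of 6 reference genes (Hprt, Tbp, Polr2a, Sdha, Gusb and Pgk1) had a median ratio of 0.96 in oil and 0.93 in tamoxifen, with no interval above 1 and 10 and 13 below, and pairs of reference genes had medians of 1.02 and 1.04.

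The excess was larger when more members were counted together, which positive relations between pairs tend to give. These counts use the same cells and genes as the pairs and pool all called cell cycle phases, so they add no separate result. Without Txnip, at least 3 of the other 9 members were seen in 326 thinned cells in oil (5.15%) where independent shares would give 167.6, and in 552 in tamoxifen (9.01%) where 338.5 would be given. At least 4 were seen in 79 and 159 cells, with 17.7 and 47.7 expected. Tsc22d3, Klf9 and Pik3ip1 were all seen in 70 cells in oil, 5.03 times the product of their shares, and in 135 in tamoxifen, 3.84 times. For Ddit4, Per1 and Tsc22d3 the numbers were 18 and 32 thinned cells, 5.24 and 2.89 times the product, and 81 and 184 cells before thinning.

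To ask which program each cell showed, thinned cells were placed in 4 classes by at least 1 UMI of the 4 glucocorticoid members and of the 4 FOXO members. FOXO only was the largest class, with 50.7% of cells in oil and 48.7% in tamoxifen, followed by both programs with 24.1% and 32.9%, neither with 21.8% and 14.9%, and glucocorticoid only with 3.36% and 3.56%. The class with both programs was thus 8.75 percentage points larger in the library labelled tamoxifen. The product of the separate shares also rose, from 20.6% in oil to 29.7% in tamoxifen. The observed class was 1.17 times that product in oil and 1.11 times in tamoxifen, so by this ratio the excess over it was not larger in tamoxifen. The share of cells with a FOXO member was larger in tamoxifen, which lowers the highest ratio possible there. The ratios of the libraries are therefore not like for like. Txnip supplied 87.2% and 87.3% of the FOXO members' UMIs. Without it, a choice made after the data were seen, neither was largest, 55.3% and 47.1%, glucocorticoid only held 17.2% and 21.6%, FOXO only 17.2% and 16.5%, and both 10.3% and 14.9%. By that definition the cells with both programs were 1.36 and 1.30 times the product of the separate shares. A class is a range of counts and not a cell type: with Txnip counted, 189 of the 213 glucocorticoid only cells and 1133 of the 3211 FOXO only cells in oil were called by 1 UMI.

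Ddit4, which was used in no class, was seen most often where both programs were seen. Its share was 12.96% of the cells with both programs in oil, 7.29% of FOXO only, 3.29% of glucocorticoid only and 2.47% of neither. In tamoxifen the same shares were 17.3%, 11.6%, 8.72% and 5.49%, higher in every class, with intervals that overlapped for glucocorticoid only. The classes differed in the share of cells called G1 (the phase calls are given below), which was 73.7% and 80.2% of the cells with both programs, 45.97% and 56.1% of FOXO only, 15.96% and 38.1% of glucocorticoid only and 13.2% and 22.2% of neither. Among G1 cells alone, added after the data were seen, Ddit4 was in 15.4% of the cells with both programs in oil, 11.3% of FOXO only and 4.95% of neither, and in tamoxifen in 18.9%, 14.9% and 7.92%. The glucocorticoid only class held 34 and 83 G1 cells, 2 and 10 of them with Ddit4.

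**Figure D3:**
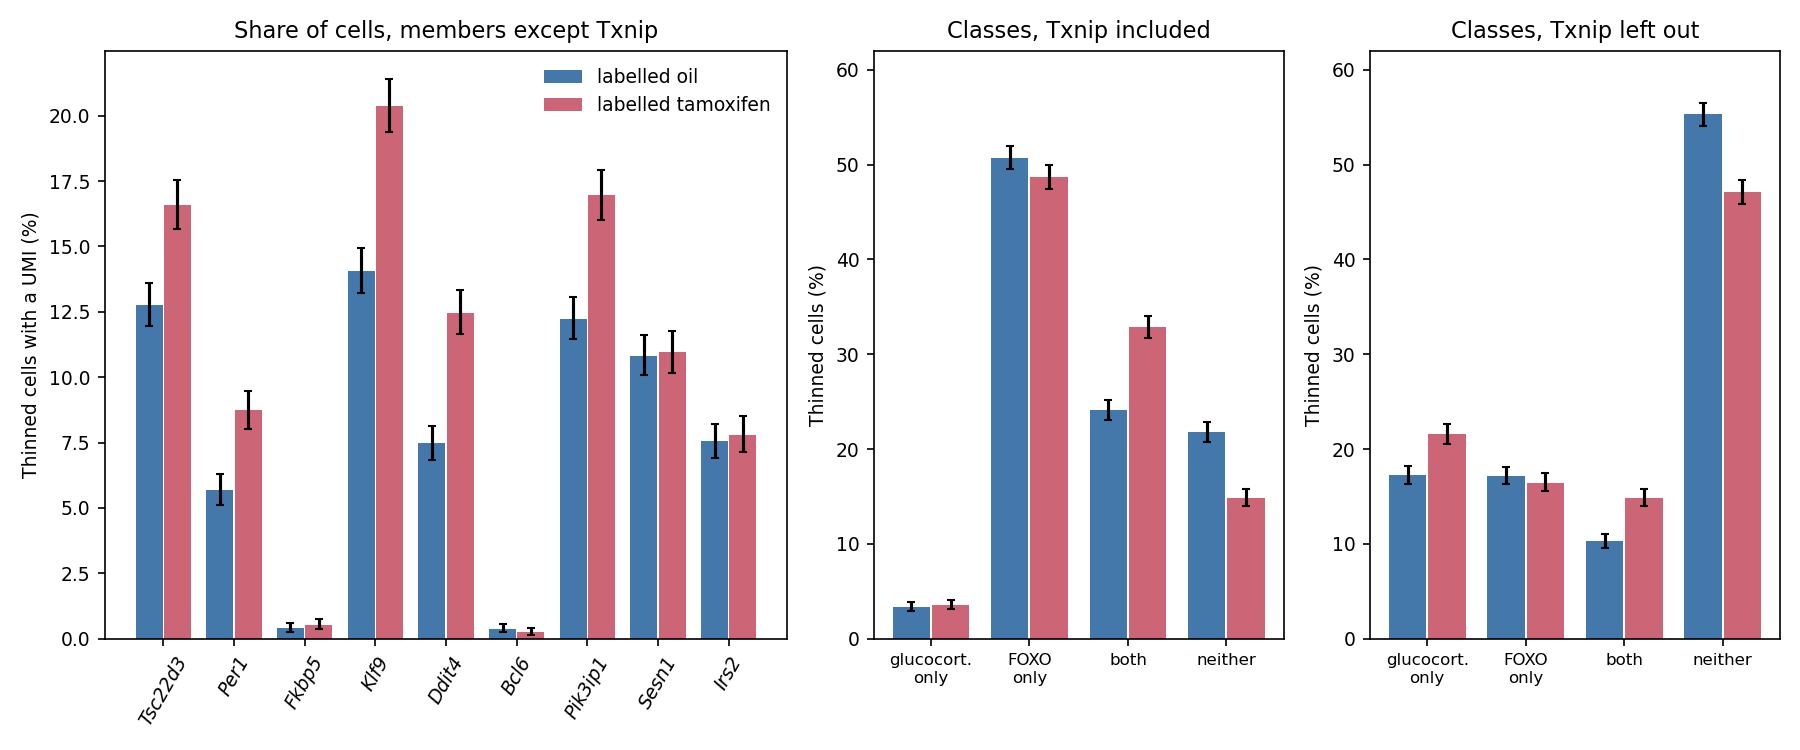
Left, percent of thinned cells with a UMI of each member except Txnip in the library labelled oil (blue) and tamoxifen (red), with 95% Clopper-Pearson intervals. Middle and right, percent of thinned cells in each class with Txnip counted among the FOXO members and with Txnip left out. Klf9 has the highest shares on the left, 14.1% and 20.4%, and leaving out Txnip moves most FOXO only cells to the class with neither.

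The members varied with the called cell cycle phase. By scores over 43 S phase and 54 G2M genes, 44.5% of thinned cells were called G1 in oil and 58.3% in tamoxifen, 21.2% and 15.3% S, and 34.3% and 26.3% G2M. These are calls from expression and no measure of cycling. Pik3ip1 was at 98.3 CPM in G1 cells, 14.9 in S and 15.2 in G2M in oil, and at 105.8, 21.3 and 21.3 in tamoxifen. Tsc22d3 was at 97.4, 19.1 and 23.6 in oil and at 106.3, 26.6 and 32.4 in tamoxifen. Both were highest in G1 in each library, by a log2 ratio over G2M of 2.69 and 2.31 for Pik3ip1 and of 2.04 and 1.71 for Tsc22d3. Txnip fell from 1544 in G1 to 392 in G2M in oil and from 1418 to 493 in tamoxifen. Klf9, with log2 ratios of G1 over G2M of 1.42 and 1.64, and Sesn1, with 0.64 and 0.40, had the same direction. Irs2 did not: it was at 27.1, 30.1 and 25.0 in G1, S and G2M in oil and at 29.2, 24.1 and 26.2 in tamoxifen, all with overlapping intervals within a library.

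Among the 8 members seen in at least 5% of cells, Ddit4 and Per1 were those in which the G2M cells of the 2 libraries differed most, while the scarce Fkbp5 had a log2 ratio of 1.17 there with an interval from -1.20 to 3.85. In G2M cells Ddit4 was at 13.1 CPM in oil and 30.4 in tamoxifen, a log2 ratio of 1.22 (0.82 to 1.62), and in G1 cells at 49.3 and 61.9, a log2 ratio of 0.33 (0.15 to 0.51). Per1 was at 11.8 and 24.2 in G2M, a log2 ratio of 1.03 (0.60 to 1.47), and at 29.5 and 38.7 in G1, 0.39 (0.16 to 0.63). The intervals of the 2 phases did not overlap for Ddit4 and overlapped for Per1, and the difference between phases was not tested.

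Within G1 cells the list as a whole differed less between the libraries. Klf9 kept a log2 ratio of 0.46 (0.34 to 0.59) there, whereas the intervals of Tsc22d3, 0.13 (-0.0038 to 0.26), and Pik3ip1, 0.11 (-0.02 to 0.24), included 0, and Txnip was lower in tamoxifen, at -0.12 (-0.16 to -0.09). In G2M cells Tsc22d3, at 0.46 (0.13 to 0.79), Pik3ip1, at 0.49 (0.07 to 0.90), and Txnip, at 0.33 (0.25 to 0.41), were higher in tamoxifen. The interval of Klf9 in G2M, 0.25 (-0.04 to 0.53), included 0. In S cells the intervals of Klf9, Tsc22d3, Pik3ip1 and Txnip all included 0. With the tamoxifen levels of each phase weighted by the phase shares of oil, the log2 ratios were 0.55 for Ddit4, 0.53 for Per1, 0.41 for Klf9, 0.21 for Tsc22d3, 0.18 for Pik3ip1, 0.00 for Irs2, -0.03 for Txnip and -0.05 for Sesn1. Unweighted in the same thinned cells, they were 0.71, 0.65, 0.63, 0.43, 0.44, 0.03, 0.18 and 0.04. Within G1 the 10 pairs of the block of 5 members had ratios of 1.15 to 1.57 in oil and 1.21 to 1.37 in tamoxifen, with 8 and 10 intervals above 1, smaller than over all cells. In S and G2M cells only 2 and 2 of the 10 intervals lay above 1 in oil, and 0 and 5 in tamoxifen. Median ratios there were 1.65 and 1.61 in oil and 1.53 and 1.79 in tamoxifen, on 2 to 26 cells per pair. Co-detection outside G1 was thus largely unresolved.

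**Figure D4:**
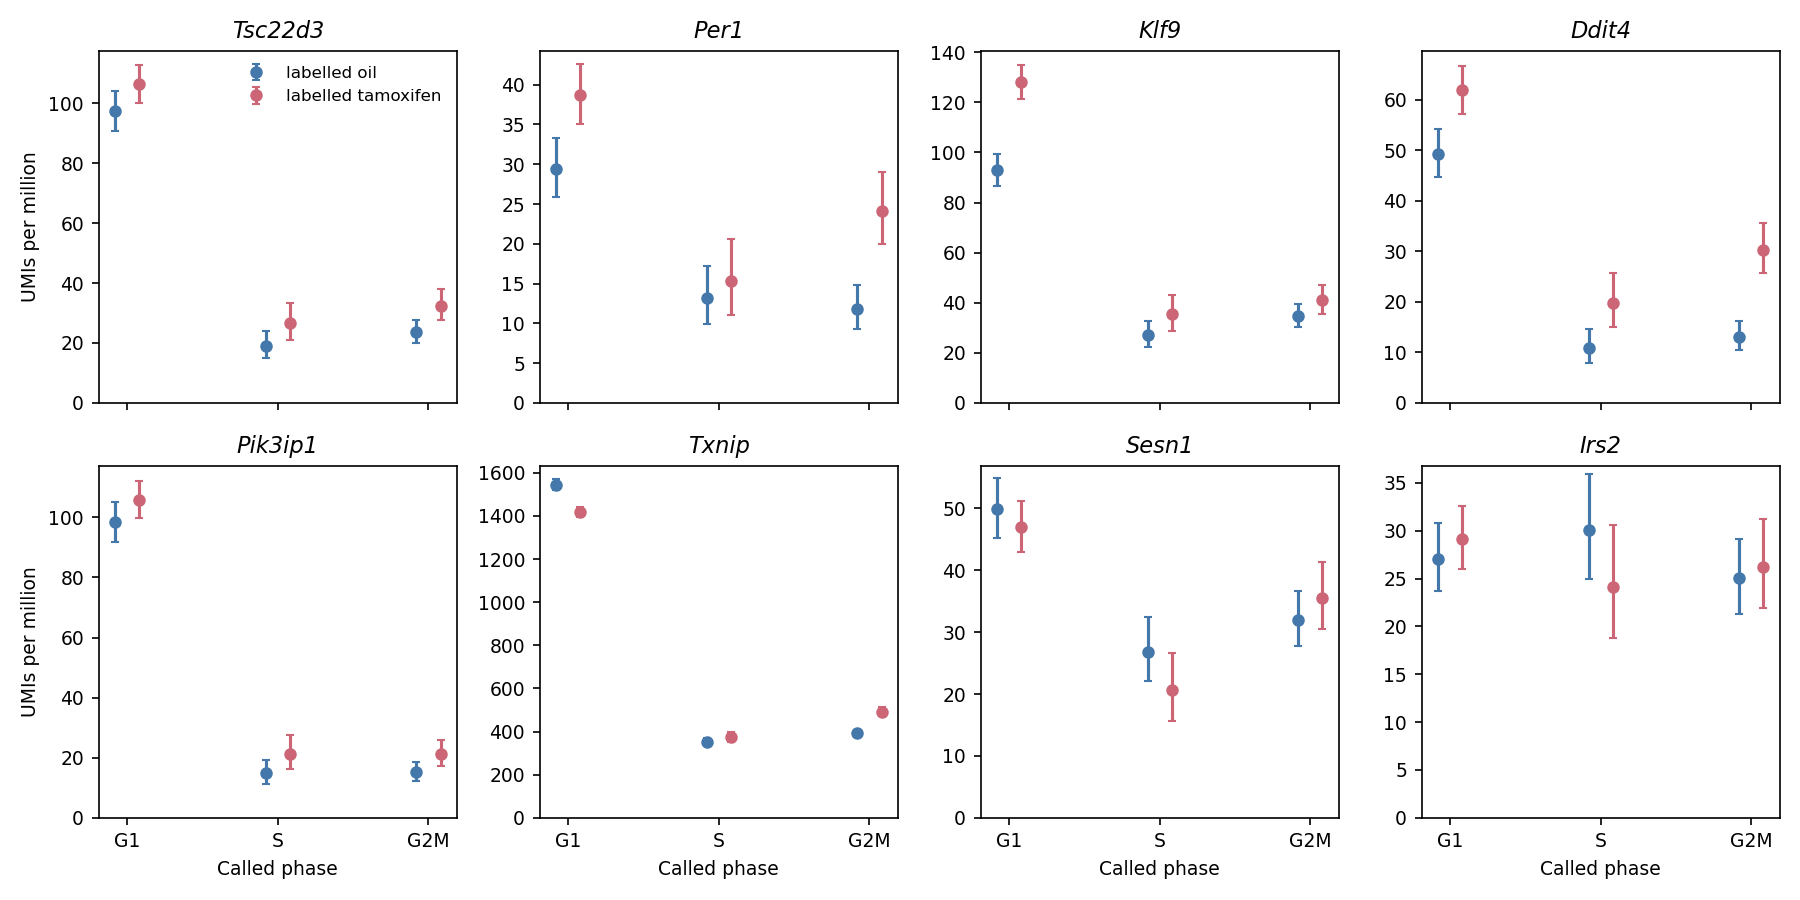
Level of 8 members in CPM (linear axes from 0, 95% Poisson intervals) in thinned cells called G1, S or G2M, in the library labelled oil (blue) and tamoxifen (red). In both libraries 7 members are highest in G1, Irs2 is level, and Ddit4 and Per1 differ most between the libraries in G2M.

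The cells were further ordered by gene lists that hold no member. A wide range was seen along mast cell genes (12 genes of proteases, the IgE receptor and histamine synthesis), which these leukemia cells expressed at 2983 CPM in oil and 2753 in tamoxifen. From the lowest to the highest quintile of the mast list, Pik3ip1 went from 7.11 to 146.1 CPM in oil, a log2 ratio of 4.36 (3.80 to 4.98), and from 22.0 to 163.5 in tamoxifen, 2.89 (2.55 to 3.24). Tsc22d3 went from 16.1 to 152.4 in oil and from 34.3 to 159.7 in tamoxifen, and Klf9 from 20.01 to 124.3 and from 35.1 to 183.4. Ddit4 had a log2 ratio of 2.39 in oil and of 0.94 in tamoxifen, where its level in the lowest quintile was 37.8 against 11.6 in oil. Sesn1 rose little along the list (0.79 and 0.61), and the intervals of Irs2 included 0 in both (-0.14 and 0.21).

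Along the erythroid list (10 genes, 2574 and 2318 CPM) the members ran the other way. Pik3ip1 was at 125.3 in the lowest quintile and 9.74 in the highest in oil, a log2 ratio of -3.69, beside -3.14 in tamoxifen. The log2 ratio was -2.74 and -2.40 for Tsc22d3, -2.45 and -1.82 for Txnip and -1.94 and -2.55 for Klf9, and for Irs2 again near 0 (0.09 and 0.11). Along the immediate early list (9 genes, 896 and 520 summed CPM) the log2 ratios were 1.92 and 1.52 for Tsc22d3, 1.59 and 1.31 for Pik3ip1, 0.86 and 0.41 for Ddit4 and 0.18 and -0.14 for Irs2. Those of Tsc22d3, Pik3ip1 and Ddit4 were positive and smaller than along the mast list. In oil the quintiles went from a mean of 0 to 9.84 UMIs of the immediate early list, beside 1.10 to 41.0 of the mast list. The sizes are therefore not like for like.

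Cells with few molecules held more of the members at a common total. In thinned cells ranked by their UMI total before thinning, Tsc22d3 was at 159.0 CPM in the lowest quintile and 13.4 in the highest in oil, and at 177.4 and 19.6 in tamoxifen. Txnip was at 1955 and 237 in oil, and Pik3ip1 at 143.0 and 7.11. The level of Irs2 in the same quintiles was 27.6 and 26.1. Phase, the mast and erythroid lists and the total were not separated from each other, and their parts in these patterns were not tested.

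**Figure D5:**
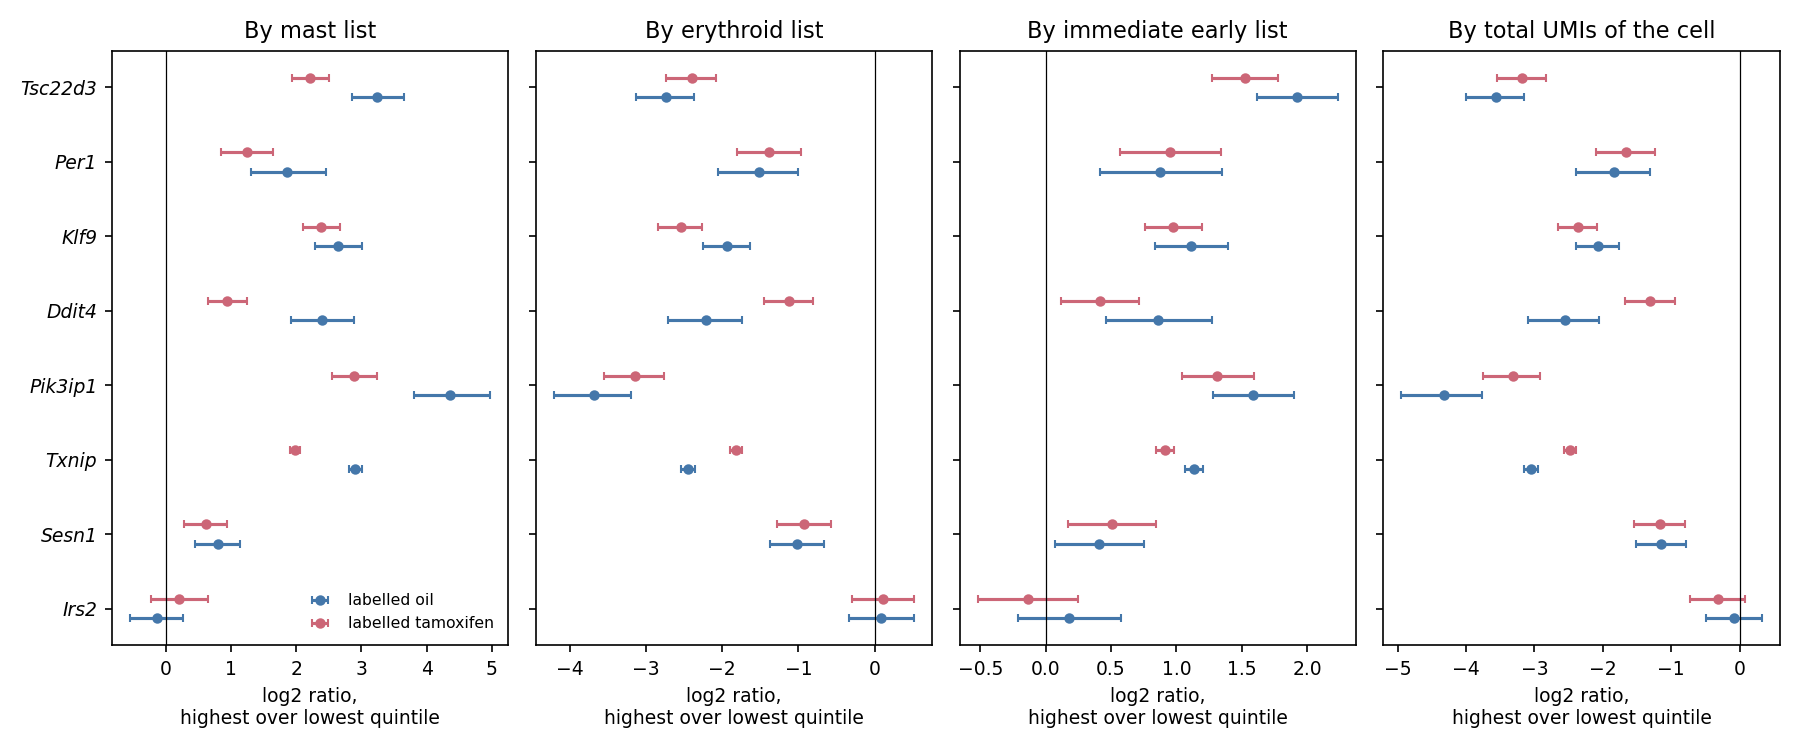
Log2 ratio of the highest over the lowest quintile of thinned cells for 8 members, with cells ranked by the summed mast, erythroid or immediate early list or by their total UMIs before thinning, in the library labelled oil (blue) and tamoxifen (red), with 95% counting intervals. Pik3ip1 has the widest span (4.36 along the mast list and -4.33 along the total in oil) and Irs2 stays near 0 in every panel.

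The genes most like each member across thinned cells, by Pearson r of log counts among 6086 genes seen in at least 5% of cells of both libraries, were ranked in the library labelled oil. Of the 25 genes in the 8 lists of 5, 8 were in more than 1 list and 17 in only 1, and Irs2 shared none. Pearson r is low for sparse counts and is given as description. Tsc22d3 was most like Cma1 (r = 0.34 in oil, 0.26 in tamoxifen), a mast cell chymase, followed by Klf2, Serpinb1a, Txnip and Adgre5. Klf9 was most like Cpa3 in oil (0.26, and 0.27 in tamoxifen, where it had rank 3), the mast cell carboxypeptidase, followed by Tespa1, Slc7a8, Fcer1a and Akap13. Txnip was the gene most like Pik3ip1 (0.33 and 0.31) and Ddit4 (0.20 and 0.13) in both libraries, and most like Sesn1 in oil (0.10, and 0.08 at rank 2 in tamoxifen). The others most like Pik3ip1 were Cpa3, Cma1, Fcer1a and Tespa1, those most like Ddit4 were Fcer1a, Cpa3, Kit and Pik3ip1, and those most like Sesn1 were Akap13, Laptm5, Fam46a and Zeb2. Txnip itself was most like Serpinb1a in oil (0.51 and 0.41), then Srgn, Malat1, mt-Co1 and Sh3bgrl3, and in tamoxifen Malat1 ranked above it (0.44). Per1 was most like Sgk1 in oil (0.12), a kinase gene that glucocorticoids induce, followed by mt-Co1, Serpinb1a, Akap13 and Txnip. In tamoxifen Sgk1 was at rank 27 (0.08) and Txnip at rank 1 (0.12). Irs2 had no close gene: its highest r was 0.05, with Ncoa7, and 0.02 in tamoxifen, and the next were 1810058I24Rik, Fam241a, Ago2 and Id1.

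The regulators were measured beside their targets. Nr3c1, the glucocorticoid receptor, was at 50.3 and 53.3 CPM (log2 ratio 0.08, 0.01 to 0.15). Of 10 measured genes of the receptor's machinery, Nr3c1 and Ncoa2 had intervals above 0 and 6 genes below, with a median of -0.27: the co-chaperone Fkbp4 (-0.45) and the chaperone Hsp90aa1 (-0.40) were lowest, and the coactivators Ncoa1 (0.17, interval including 0) and Ncoa2 (0.12) highest. Foxo3 was the most abundant FOXO gene at 50.3 and 58.9 CPM (0.23, 0.16 to 0.30), Foxo1 was at 4.21 and 5.92 (0.49, 0.26 to 0.72), and Foxo4 at 10.98 and 10.1 (-0.12, interval including 0). Over 13 measured genes of the FOXO and PI3K machinery the median was -0.03, with 5 intervals above 0 (Foxo1, Foxo3, Pik3cg, Pik3ca and Pik3r1), and the lowest ratios were those of Akt1 (-0.18, interval below 0) and Foxo4. Beside the counts of both lists, the interval lay above 0 for 19.3% of all measured genes and below 0 for 39.8%.

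Other targets of the same factors did not all follow the members. Of 13 measured other glucocorticoid targets, 3 were at least 1.5-fold higher (Mt1, Mt2 and Sgk1), beside 2.09% of all measured genes. Another 3 were at least 1.5-fold lower (Dusp1, Zfp36 and Angptl4), beside 1.27% of genes, and the median log2 ratio of the 13 was 0.02. Under the strict cell filter, which keeps 673 and 771 cells (1000 or more genes, no more than 5% of UMIs mitochondrial), the median was 0.56 over the 9 of them still measured, beside 0.48 for 8 members. Genes outside the 2 extremes of a list are named here after their values were seen. The metallothioneins Mt2 (403 to 749 CPM, 0.89) and Mt1 (706 to 1244, 0.82) were highest, and Dusp1 (31.1 to 14.7, -1.09) and Zfp36 (54.1 to 28.2, -0.94), which are also known as immediate early genes, lowest. Of 23 measured other FOXO targets, 13 had intervals above 0 and 5 below (Bnip3, Klf2, Eif4ebp1, Sod2 and Cited2), beside 19.3% and 39.8% of all measured genes, with a median of 0.18. Gadd45a, a stress gene that slows the cell cycle, was highest (0.530 to 1.65 CPM, 1.64, interval 1.07 to 2.24) with Tob1, an antiproliferative gene (9.86 to 15.1, 0.61), and Bnip3 (-0.55) and Klf2 (-0.42) were lowest. In G1 cells alone the median of the other FOXO targets was -0.07 over 20 measured, beside -0.10 for all genes measured there.

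Genes next to the members in their pathways are given beside the median of -0.06 over all measured genes. Of all measured genes, 19.3% had intervals above 0 and 39.8% below. Of 11 measured clock genes besides Per1, only Clock (0.14) had an interval above 0 and only Cry1 (-0.20) an interval below, with a median of -0.08, Per2 (-0.32) and Ciart (-0.22) lowest and Tef (0.06) next to Clock. Under the strict cell filter 5 clock genes were still measured and their median was 0.33. For 11 measured genes of thioredoxin and glucose handling the median was -0.09, with Mlxip, a glucose-sensing factor (0.35), and Hk2 (0.16) highest and Txnrd1 (-0.34) and Mlx (-0.24) lowest. For 16 measured genes of mTORC1 control it was -0.05, with Sesn2, a relative of Sesn1 (8.54 to 13.3, 0.63), and Tsc1 (0.18) highest and Rheb, the activator of mTORC1 (-0.35), and Mlst8 (-0.21) lowest. Among 5 measured family relatives of the members, Tsc22d4 (0.38) and Tsc22d1 (0.35) were higher, Tsc22d2 was at -0.02 and Klf3 at -0.21, with a median of 0.20 (0.34 under the strict cell filter).

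Lists of other programs moved between the libraries as well. The immediate early list went from 896 to 520 summed CPM and the interferon list (18 genes, 16 detected) from 306.5 to 523, and their part in the members' ratios was not tested. Along the interferon list the log2 ratios of the highest over the lowest quintile ran from -0.01 (Ddit4 in oil) to 0.54 (Txnip in oil) among 8 members, beside 0.37 for Irs2 in oil. For Tsc22d3, Per1, Klf9, Ddit4 and Pik3ip1 they were smaller in size than along the mast or erythroid list. In oil the quintiles went from a mean of 0 to 3.01 UMIs of the interferon list, beside 1.10 to 41.0 of the mast list and 1.13 to 14.3 of the erythroid list. The sizes are therefore not like for like, and the part of this difference was not tested.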

How the data were processed

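Single-cell RNA was measured in 2 droplet libraries, 1 per arm, of sorted AE9a leukemia cells pooled from 3 mice each. The authors deposited count matrices (UMI counts per gene and barcode) made with Cell Ranger 3.0.2 on mm10, per the file headers and the submitters' processing notes, which also name Seurat. The kept cells held 66045700 UMIs under oil and 60661486 under tamoxifen, and 3 counts in a library correspond to 0.0454 and 0.0495 CPM. Scrublet marked 0.307% and 0.0309% of cells, too few to have worked, and no doublets were removed.

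UMIs were summed per library and scaled to CPM with exact Poisson intervals, and ratios of tamoxifen over oil had exact conditional binomial intervals (95%). A gene was called measured from a sum of 100 UMIs over both libraries. With 1 library per group no test was run. Shares, co-detection, classes, phases (scanpy 1.11.5) and quintiles of gene lists used cells thinned to 3000 UMIs with a fixed seed. Steps were tested on simulated data. Gene coordinates are those of GENCODE (GRCm38), in which 30934 of 31053 gene identifiers were found.

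The members and gene lists were chosen with earlier results of these data known. Named genes were all 10 members, Nr3c1, Foxo1, Foxo3 and Foxo4, the 2 highest and 2 lowest measured ratios of each pathway list, and the 5 genes most like each of the 8 members seen in at least 5% of cells. Alternatives were other cell filters, scalings (edgeR 4.0.16 TMM, DESeq2 1.42.0 median ratio), count minimums, thinning depths and class rules. Of the pathway lists, 1 gene is not reported here by name.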

Additional observations from a re-analysis of the deposited data

Results flagged for a closer look

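Barcodes set aside by the cell filter (936 under oil and 839 under tamoxifen) entered no comparison of the kept cells, and of 8 members measured there 4 were higher in tamoxifen by intervals above 0, beside 6.47% of the 7198 genes measured in these barcodes. The members were chosen on the same contrast in the kept cells of these libraries. The log2 ratios of tamoxifen over oil in these barcodes were 0.94 for Ddit4 (26.5 and 50.6 CPM), 0.90 for Per1 (18.1 and 33.9 CPM), 0.36 for Klf9 (68.2 and 87.5 CPM) and 0.28 for Tsc22d3 (58.7 and 71.4 CPM). Txnip (0.05), Pik3ip1 (0.08), Sesn1 (-0.03) and Irs2 (-0.24) had intervals that included 0. What these barcodes are, intact cells or others, was not tested.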

How the results depend on the processing

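No paired analysis was possible because only 1 library stands for oil and 1 for tamoxifen. The median log2 ratio of the members, 0.52, lay between 0.39 (equal weight for every cell) and 0.59 under the other cell filters, scalings and count minimums, and the measured members stayed above 0 in each except Irs2, at -0.0015 without the cells of highest Scrublet score. Restricted to thinned G1 cells, an alternative chosen after seeing the data, the median was 0.12 over 8 measured members, 0 members passed 1.5-fold, and the sign turned for Txnip (-0.12), Sesn1 (-0.0900), the median of the other FOXO targets (-0.0749) and that of the family relatives (-0.0844), with a change of -0.374 points in the share of G1 cells with Txnip. With 5 against 3, more members passed 1.5-fold with a total that leaves out mitochondrial and ribosomal protein genes, which raises every log2 ratio by 0.07. TMM and median ratio scaling raise every ratio by 0.04 and 0.06. Genes at least 1.5-fold higher numbered 220, but 572 and 105 at minimums of 20 and 500 UMIs and 110 in G1 cells. Genes at least 1.5-fold lower numbered 134, but 370 and 73 at those minimums, 261 in G1 cells, 231 with equal weight for every cell, 88 without mitochondrial and ribosomal protein genes and 295 in cells with 1000 or more genes and 5% or less of their UMIs from mitochondrial genes, a filter that keeps 673 and 771 cells. The difference in cells with both programs, 8.75 points, was 11.1 at 5000 UMIs, 11.3 without thinning, 15.1 under the strict cell filter, 5.27 in G1 cells, 11.04 with Ddit4 and Bcl6 in both programs, 4.53 with at least 2 UMIs of a program and 4.57 without Txnip. With at least 2 UMIs, FOXO only was 5.36 points larger in tamoxifen, where with 1 UMI it was smaller. Without thinning, the median co-detection ratio of the 28 pairs among 8 members went from 1.29 to 1.08 in oil and from 1.20 to 1.07 in tamoxifen, and that of the 3 glucocorticoid pairs from 1.74 to 1.23 and from 1.55 to 1.18 (1.32 and 1.41 at 5000 UMIs). Under the strict cell filter the log2 ratio was 0.93 for Per1, 0.90 for Fkbp5 and 0.67 for Ddit4, with equal weight 0.61, 1.01 and 0.61, and without the cells of highest Scrublet score 0.69, 0.91 and 0.86. Fkbp5 and Bcl6 rest on few counts, and the causes of these shifts were not tested.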
